A study of Homo sapiens with 12 samples.

Results

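The genes described here are 36 regulators of autophagy and the lysosome, followed through the genomic binding map of the nuclear receptor PPARγ. They were taken as a named set, out of 19974 protein-coding genes on chromosomes 1 to 22 and X, and a peak was assigned to a gene when its summit lay within 50 kb of the gene's span in hg38. All 36 had a span in the RefSeq table, and no wild-type peak fell in the windows of more than 1 of them. Assignment is by position alone. It does not say that a site acts on the gene.

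Chromatin immunoprecipitation (ChIP) with sequencing was done in MCF10A-NeuT cells. MCF10A is an established line of human breast epithelium, here carrying the NeuT oncogene. By retrovirus, the cells had been made to express Flag-tagged PPARγ stably, either wild type or K154/155Q, a form in which neighbouring lysines are replaced by glutamine. The sample titles call it KQ and the design text calls it acetylation deficient. The wild-type group (genotype PPARg-WT) and the KQ group (PPARg-KQ) had 2 ChIP libraries each. The growth protocol has both lines kept in DMEM with serum. The labels name an antibody to PPARγ for the pull-down, whereas the series' design text names one to Flag, and with the former the cells' own receptor would be pulled down too. Whether each line is a clone or a pool, and whether the libraries came from separate cultures, the labels do not say. The ChIP libraries of vector cells and the input libraries were not analysed here, so no site below was set against cells without the added receptor.

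Autophagy encloses part of the cytoplasm in a double membrane and delivers it to the lysosome for breakdown. The ULK kinase complex starts the process, a class III PI3-kinase complex marks the membrane with the lipid PI3P, PI3P-binding and lipid-carrying proteins enlarge it, and a pair of ubiquitin-like conjugation systems attaches ATG8 proteins (the LC3 and GABARAP families) to it. Cargo receptors such as p62 join ATG8 proteins to what is to be degraded, and the transcription factor TFEB switches on lysosome genes. PPARγ binds DNA with a retinoid X receptor at a direct repeat of AGGTCA with a 1-base spacer, and is best known for fat storage and fatty acid use.

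Genome-wide, the wild-type libraries held 18143 and 17859 peaks and the KQ libraries 1263 and 1035. A pooled peak is called reproducible when a peak of both libraries of its group overlaps it, which held for 8033 wild-type and 354 KQ peaks. Each peak comes with the authors' fold enrichment, taken relative to local background, and their p-value, and from this pair the number of sequenced tags piled up at the summit could be recovered as a whole number for 100% of the peaks of all 6 lists. Depth in reads is not given in the sources used: peak lists do not hold it. The lowest background in a list was 0.354 and 0.145 tags in wild-type libraries 1 and 2, and 0.613 and 0.588 in KQ libraries 1 and 2. At these floors a given number of tags makes a lower fold in the KQ lists. The part of this in the peak counts was not tested.

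RefSeq starts were found for 31 of the 36 genes, at 39 promoter windows that run from 250 bases before to 50 after a start (GRCh38.p14). A wild-type pooled peak overlapped 4 of these windows, those of ATG2A, SQSTM1, NBR1 and LAMP1, or 10.3%, against 5.44% of the 22156 promoter windows of all protein-coding genes. A reproducible wild-type peak overlapped 1 of the 39 (2.56%, against 1.30% of all), the NBR1 promoter. A pooled KQ peak overlapped 0 of these 39 windows and 131 of all 22156. Below are the 250 bases before the start for ATG2A and LAMP1, shown because they hold motif matches under wild-type peaks, and for a start of DLG4, a neighbour of GABARAP, shown because it lies under the strongest site that these genes had with KQ. The SQSTM1 and NBR1 windows held neither motif in these bases and are not shown. Capitals mark a near match to the PPAR element in ATG2A, the hexamer CACGTG in LAMP1, and the bases inside the pooled KQ peak in DLG4.
ATG2A promoter, chr11:64917210-64917459, minus strand: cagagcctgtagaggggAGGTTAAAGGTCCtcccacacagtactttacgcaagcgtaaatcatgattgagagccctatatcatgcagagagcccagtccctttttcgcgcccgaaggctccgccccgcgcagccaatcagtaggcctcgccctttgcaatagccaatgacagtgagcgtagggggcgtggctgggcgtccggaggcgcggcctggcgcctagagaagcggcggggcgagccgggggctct
LAMP1 promoter, chr13:113296989-113297238, plus strand: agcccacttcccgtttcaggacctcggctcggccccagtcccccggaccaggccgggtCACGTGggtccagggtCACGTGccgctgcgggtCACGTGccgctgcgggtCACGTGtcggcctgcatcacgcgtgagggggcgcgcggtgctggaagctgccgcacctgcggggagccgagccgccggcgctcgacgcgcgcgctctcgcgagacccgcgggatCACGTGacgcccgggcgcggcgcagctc
DLG4 promoter, chr17:7220051-7220300, minus strand: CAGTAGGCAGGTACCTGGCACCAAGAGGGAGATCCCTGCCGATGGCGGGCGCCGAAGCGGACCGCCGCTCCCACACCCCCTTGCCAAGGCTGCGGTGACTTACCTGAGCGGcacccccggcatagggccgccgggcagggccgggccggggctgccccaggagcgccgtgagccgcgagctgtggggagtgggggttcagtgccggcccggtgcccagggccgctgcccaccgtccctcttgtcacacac

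A search was made for AGGTCA followed, after 1 base of any kind, by a second AGGTCA, on both strands and with up to 2 mismatches. It found a match in 1 of the 39 promoter windows of these genes (2.56%) and in 2.57% of all 22156. With a single match these shares could hardly show a difference. Sites outside the promoter windows were not searched. The match is the ATG2A stretch AGGTTAAAGGTCC, at 64917430 to 64917442. It lies inside a pooled wild-type peak whose summit is at 64917425, with fold 2.89 and 19 tags, and which is also 0.1 kb from PPP2R5B. By fold this peak ranked 25066 of 25164 pooled wild-type peaks, near the bottom of the list. That peak was called in wild-type library 1 (18 tags) and not in library 2. In the LAMP1 promoter the palindrome CACGTG, an E-box that bHLH factors including TFEB can bind, occurs 5 times, and 3 of these lie wholly under a pooled wild-type peak of fold 5.93. At least 3 copies in the 250 bases were found in 0.117% of all promoters. This hexamer was looked for only after the sequence had been seen. The LAMP1 peak too was called in wild-type library 1 (14 tags) and not in library 2. The DLG4 window held no match to this direct repeat at that limit, which says only that these letters are not in the window. The half-site AGGTCA alone was in 5.13% of the members' windows and in 11.9% of all.

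Sites of wild-type PPARγ lay near most of these genes, and sites of KQ near few. A reproducible wild-type peak was within 50 kb of 22 of the 36 genes (61.1%, exact binomial 95% interval 43.5 to 76.9), where the share over all protein-coding genes was 37.7%. For KQ the count was 2 of 36 (5.56%, interval 0.680 to 18.7), against 2.68% of all genes. With all pooled peaks it was 29 of 36 against 67.1% for wild type, and 11 of 36 against 16.4% for KQ. The members are somewhat longer than other genes, with a median span of 35.2 kb against 24.2 kb, which widens their windows. Per Mb of window they held 6.31 reproducible wild-type peaks, against 3.31 in the windows of all genes, and 2.39 pooled KQ peaks against 1.13. The genes and peaks are not replicates, so these shares are descriptions. The members were also chosen with earlier results of these data known.

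In the library lists, 27 members had a peak in wild-type library 1 and 30 in library 2, against 5 and 6 in KQ libraries 1 and 2. The shares over all genes were 58.9% and 60.7% in the wild-type lists, and 8.35% and 6.99% in the KQ lists. The means were 28.5 ± 2.12 genes for wild type and 5.5 ± 0.707 for KQ (SD, n = 2 libraries each). The groups did not overlap, and the difference of 23 genes gave p = 0.333 in a two-sided exact permutation test, the lowest value that 2 against 2 allows. The same windows held 70 and 67 peaks with wild type and 6 and 6 with KQ. That is a ratio of 11.4, where all peaks together gave 15.7 (exact permutation test on the members' peaks, n = 2 libraries each, p = 0.333). The plot of peaks by library shows where these peaks fall.

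**Figure D1:**
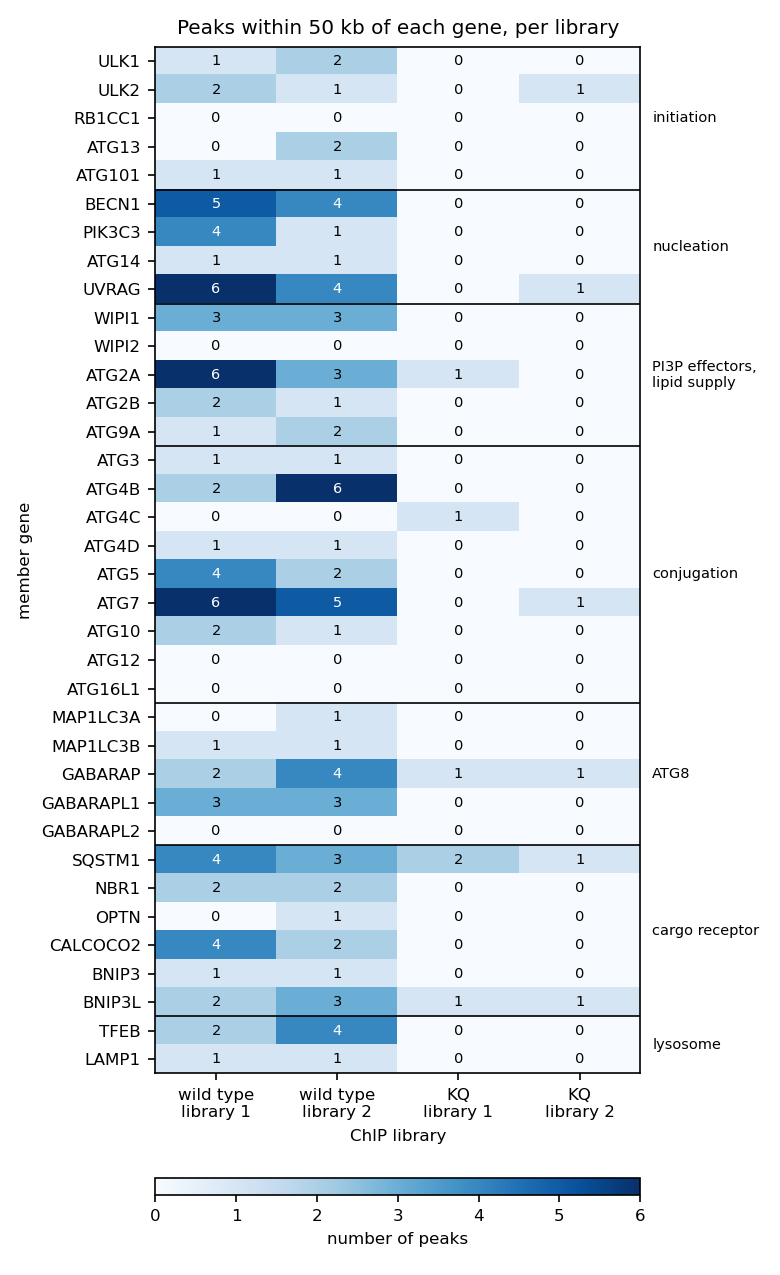
Number of peaks with a summit within 50 kb of each of the 36 genes (rows, grouped by role) in the 4 ChIP library lists (columns); colour and digit both give the count. Wild-type counts run from 0 to 6 and KQ counts from 0 to 2, with SQSTM1, GABARAP and BNIP3L the genes that have a peak in both KQ libraries.

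By role, a reproducible wild-type peak was near all 4 members of the nucleation group and 5 of the 6 cargo receptors. Such a peak was near 3 of the 5 ATG8 genes, 3 of the 5 PI3P effectors and lipid suppliers, and 1 of the 2 lysosome genes. Lowest were the conjugation enzymes (4 of 9) and the initiation complex (2 of 5). Pooled KQ peaks were near 3 of the 5 PI3P effectors, 3 of the 9 conjugation genes, 2 of the 6 cargo receptors, 1 gene each of initiation, nucleation and ATG8, and 0 of the 2 lysosome genes. Over all genes, 37.7% had a reproducible wild-type peak and 16.4% a pooled KQ peak, and the initiation and conjugation groups were near the former share. The groups hold 2 to 9 genes each, so their order was not tested. Conjugation genes have the widest total window (1.84 Mb) and held 3.80 reproducible wild-type peaks per Mb, above the initiation complex at 2.54 and below cargo receptors at 11.4. The windows of all genes held 3.31 per Mb.

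**Figure D2:**
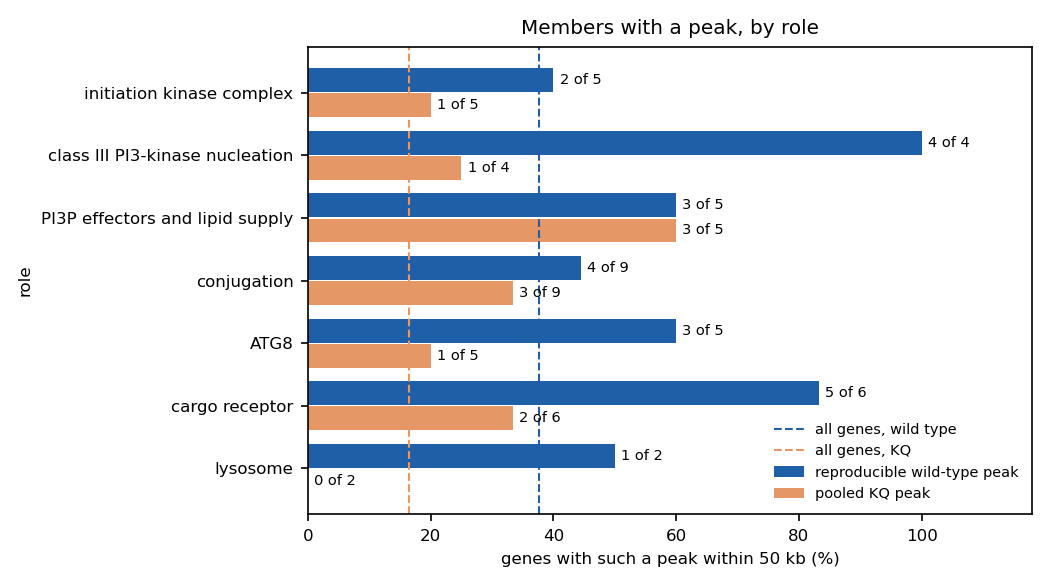
Share of genes (horizontal axis, percent) in each role with a reproducible wild-type peak (blue) or a pooled KQ peak (orange) within 50 kb; digits give the gene counts and dashed lines the share over all protein-coding genes, 37.7% and 16.4%. The nucleation and cargo receptor bars are the longest for wild type.

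Most of the wild-type sites were outside the gene they were assigned to. Of the 37 reproducible wild-type peaks in the windows, 8 lay inside the member gene (21.6%), whereas over all genes 34.0% of the pairs of peak and gene within 50 kb had the peak inside. The other 29 divided into 16 inside another protein-coding gene and 13 in no such gene, and of these 13 the member was the nearest gene for 4 (PIK3C3, UVRAG, CALCOCO2 and BNIP3). Of the 29, 14 were upstream, 11 downstream and 4 had no strand in the promoter table. The 8 inside peaks belonged to 7 genes: ATG5, ATG7, GABARAPL1, SQSTM1, NBR1, BNIP3L and TFEB. Over all genes, 13.7% had a reproducible wild-type peak inside their span and 0.826% a KQ one, which SQSTM1 alone had among the 36. With the wild-type list shortened to the 354 best peaks by q, 3 members had one within 50 kb, against 3.25% of all genes. Folds of the 37 peaks ran from 4.59 to 24.1 with a median of 8.74, close to the median of 9.03 over all 8033.

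**Figure D3:**
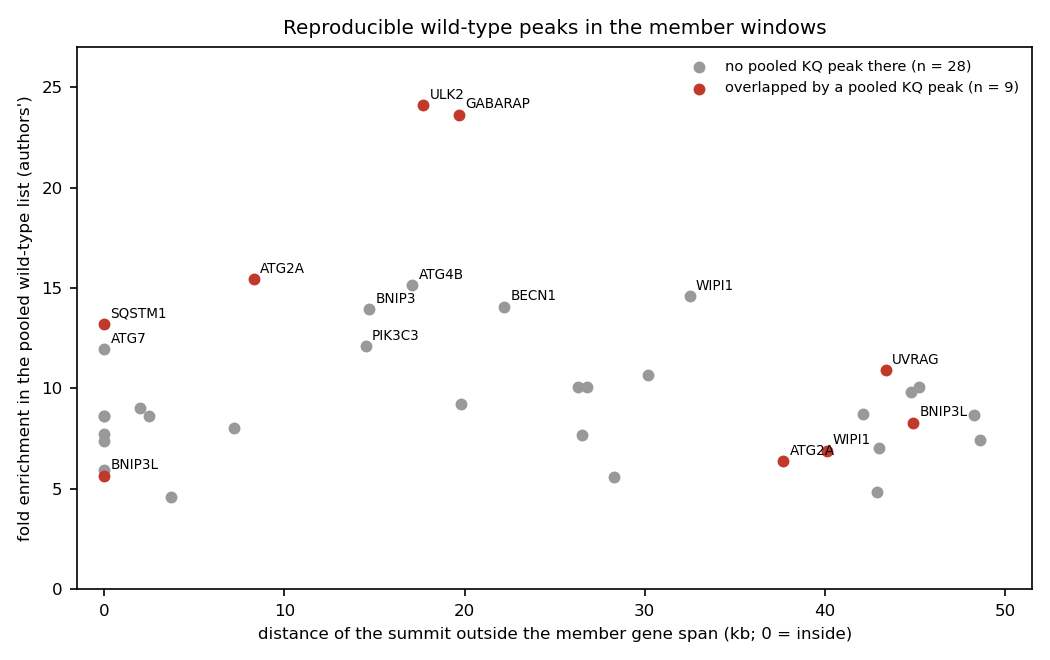
The 37 reproducible wild-type peaks in the members' windows, by the distance of the summit outside the member gene (horizontal axis, kb, 0 for inside) and the authors' fold enrichment in the pooled wild-type list (vertical axis). Red points, 9 in all, are overlapped by a pooled KQ peak, and the 2 highest of all, near ULK2 and GABARAP, are among them.

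KQ peaks lay on 9 of these 37 wild-type sites (24.3%, exact binomial 95% interval 11.8 to 41.2), against 20.1% of all reproducible wild-type peaks. Peaks are not replicates, so these shares are descriptions and their difference was not tested. The 9 sites belonged to 7 genes: ULK2, UVRAG, WIPI1, ATG2A, GABARAP, SQSTM1 and BNIP3L. Their median wild-type fold was 10.9, and that of the other 28 was 8.71. In all, 14 pooled KQ peaks were in the members' windows, of which 11 lay on a pooled wild-type peak. Of the 14, 2 were found in both KQ libraries, 3 in library 1 only, 4 in library 2 only and 5 in neither.

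Among initiation genes, ULK2 had the highest fold of the whole set. ULK2 encodes a kinase related to ULK1. The site, chr17:19752932-19753337, lies 17.7 kb downstream of ULK2 and 4.8 kb from ALDH3A1, an aldehyde dehydrogenase gene. It reached 52 tags over a background of 1.41 in wild-type library 1 and 31 tags over 0.688 in library 2, and with fold 24.1 it ranked 49 of 25164 pooled wild-type peaks. A pooled KQ peak of fold 3.36 overlapped it. That peak was called in KQ library 2, at 16 tags over a background of 3.07, and not in library 1. ULK1 had a reproducible wild-type peak of fold 8.74, placed 42.1 kb downstream inside EP400, and no KQ peak. ATG13 and ATG101, adaptors of the ULK complex, had pooled wild-type peaks of fold up to 8.01 and 4.44 that were not reproducible.

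RB1CC1, the scaffold of the complex, had no peak in any of the 6 lists, although the 50 kb limit decides this. The nearest reproducible wild-type summit, with fold 10.8, was 50023 bp from RB1CC1, just outside the window. Just inside the limit were the only peak of ATG14 (fold 8.68, 48267 bp away) and 1 of the 3 sites of ATG7 (fold 7.43, 48.6 kb away).

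All 4 members of the PI3-kinase nucleation group had reproducible wild-type sites, each outside the gene. PIK3R4, a gene of the same complex counted in the wider set below, had no pooled wild-type or KQ peak. PIK3C3 and UVRAG had further wild-type peaks inside the gene, none of them reproducible. BECN1, the complex's core subunit, had 3, the highest at chr17:42846296-42846941, 22.2 kb upstream and inside AOC2, a copper amine oxidase gene. It had 37 tags over 2.34 in wild-type library 1 and 20 over 0.672 in library 2, a pooled fold of 14.1, and no KQ peak in any list. The sites at PIK3C3, which encodes the lipid kinase VPS34, and ATG14, which directs the complex to autophagosomes, had folds of 12.1 and 8.68. UVRAG, a subunit of the endosomal form of the complex, had 2 sites. The stronger one (fold 10.9) lies 43.4 kb away inside DGAT2, which makes triglyceride, with 36 and 22 tags in wild-type libraries 1 and 2. It was called in KQ library 2, at 21 tags over 3.07, and not in KQ library 1.

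The PI3P effectors and lipid suppliers held 4 of the 14 pooled KQ peaks, none reproducible. ATG2A, a lipid transfer protein gene, had a site at chr11:64886129-64886384, 8.3 kb downstream, in no protein-coding gene and 6.6 kb from EHD1. It showed 33 tags over 1.17 in wild-type library 1 and 20 over 0.896 in library 2, with a pooled fold of 15.4. The pooled KQ peak on it had fold 3.43. That peak was called in KQ library 1, at 20 tags over 4.35, and not in KQ library 2. A site inside EHD1, with a wild-type fold of 6.36, also had a pooled KQ peak (fold 5.64), called in neither KQ library. WIPI1, which binds PI3P, had 3 reproducible wild-type sites. The highest, at chr17:68489914-68490174, lies 32.5 kb upstream inside PRKAR1A, a regulatory subunit gene of protein kinase A, with 37 and 18 tags in wild-type libraries 1 and 2 and fold 14.6. Neither KQ library had a peak there. A pooled KQ peak of fold 2.80, called in neither KQ library, overlapped another WIPI1 site, inside ARSG, which encodes a lysosomal sulfatase. ATG9A had 1 site (fold 9.19), and WIPI2 had no peak in any list. ATG2B had a pooled KQ peak of fold 5.19, called in neither KQ library. That peak lay on a wild-type peak that was not reproducible.

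Conjugation genes had sites at 4 of 9 members. ATG4B, a protease that trims ATG8 proteins, had the highest, at chr2:241620249-241620921, 17.1 kb upstream inside THAP4. It had 38 tags over 1.66 in wild-type library 1 and 16 over 0.896 in library 2, with a pooled fold of 15.1 and no KQ peak. ATG7, the E1-like enzyme of both conjugation systems, had 3 sites, of which those of fold 12.0 and 8.60 lie inside the gene. The KQ list had a peak in ATG7 at another place, chr3:11289440-11289617, with fold 4.36, on a wild-type peak that was not reproducible. It was called in KQ library 2 (17 tags) and wild-type library 2 (15 tags) and in neither library 1. ATG5, which is joined to ATG12, had a site of fold 7.71 inside the gene, and ATG4D had one of fold 10.1 that lies 45.2 kb away inside KEAP1, the sensor of oxidative stress.

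The remaining conjugation genes had no reproducible site. ATG3 and ATG10, E2-like enzymes, had pooled wild-type peaks of fold up to 5.03 and 7.17, and ATG16L1 had none in any list. ATG4C and ATG12 had a pooled KQ peak and no wild-type peak. The one near ATG4C (fold 5.69, 32.8 kb upstream) was called in KQ library 1 at 9 tags, and the one near ATG12 (fold 4.65, inside AP3S1) in neither KQ library.

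Among ATG8 genes the KQ signal was at 1 site, near GABARAP. GABARAP gives its name to a subfamily that acts late in autophagosome formation. The wild-type peak, chr17:7219799-7220594, lies 19.7 kb downstream of GABARAP inside ACADVL, the gene of the very long chain acyl-CoA dehydrogenase of mitochondrial fatty acid oxidation, and it covers the DLG4 start region printed above. In wild-type libraries 1 and 2 it had 67 tags over 2.92 and 29 over 0.659, and in KQ libraries 1 and 2 it had 49 over 3.73 and 35 over 2.54. All 4 libraries thus had a peak here, at folds of 17.3 and 18.1 in the wild-type lists and of 10.6 and 10.2 in the KQ lists. With a pooled fold of 23.6 it ranked 59 of 25164 in wild type, and the KQ peak, at fold 15.0, ranked 3 of 2846. Other genes, ACADVL and DLG4 among them, are nearer to the site than GABARAP, and the count of ATG8 genes with a KQ peak rests on it.

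Within the GABARAP subfamily, GABARAPL1 had a reproducible wild-type peak inside the gene (chr12:10220485-10220712, fold 7.39), 7.7 kb from its start, with 12 and 9 tags. GABARAPL2 had a pooled wild-type peak of fold 3.84 found in neither library. The LC3 genes among the members had weak or no sites. MAP1LC3B, whose product is the common marker of autophagosomes, had a peak 3.7 kb upstream inside FBXO31. Its fold of 4.59 was the lowest of the 37. MAP1LC3A had a peak in wild-type library 2 only, absent from the pooled list. In the wider set below, MAP1LC3C had a reproducible wild-type peak of fold 9.49 inside the gene, and MAP1LC3B2 had one of fold 7.69.

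Cargo receptors held the only KQ site inside a member that both libraries shared. SQSTM1 encodes p62, which links ubiquitin-marked cargo to ATG8 proteins. The site, chr5:179818887-179819245, lies inside the gene, 1.85 kb before an internal RefSeq start. It had 57 tags over 6.43 in wild-type library 1 and 33 over 0.672 in library 2, so that the library folds were 7.81 and 20.3, and 31 over 3.27 and 38 over 3.07 in the KQ libraries, with folds of 7.49 and 9.58. The tags of the groups overlapped, with the lowest count in KQ library 1 and the highest in wild-type library 1. Tags are not adjusted for depth, so this overlap does not compare occupancy. The pooled folds were 13.2 for wild type and 9.48 for KQ. A peak at the SQSTM1 start, with fold 5.20 in the pooled wild-type list, was called in neither library.

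**Figure D4:**
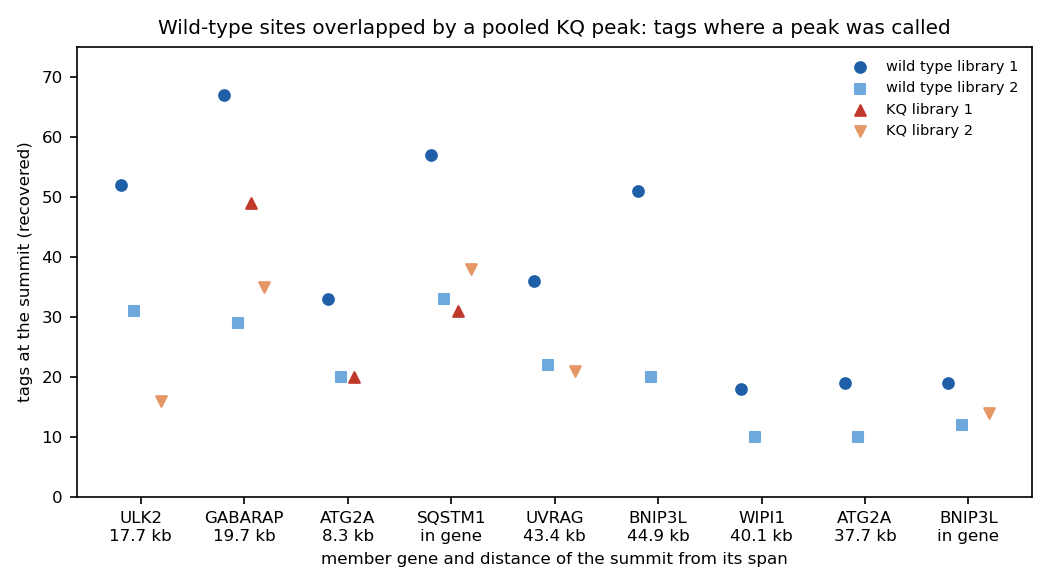
Tags at the summit (vertical axis, recovered from the authors' fold and p) in each library at the 9 reproducible wild-type sites that a pooled KQ peak overlaps; a missing symbol means that no peak was called in that library, not that tags were 0. GABARAP and SQSTM1 are the sites with all 4 symbols, at 29 to 67 and 31 to 57 tags. Tags are not adjusted for depth.

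BNIP3, a mitophagy receptor that hypoxia induces, had a site 14.7 kb upstream at chr10:131996548-131996780, in no protein-coding gene. The site had 23 tags over 2.34 in wild-type library 1 (fold 7.19) and 13 over 0.145 in library 2 (fold 12.2). That background of 0.145 is the lowest of the library 2 list. In the pooled list the site had 35 tags over 1.58 and fold 13.9, and KQ had no peak there. The related receptor BNIP3L had 3 pooled KQ peaks, the most of any member. One, inside the gene (wild-type fold 5.65, KQ fold 4.88), was called in KQ library 2 at 14 tags, and another 25.3 kb away (KQ fold 7.22, no wild-type peak) in KQ library 1 at 15 tags. The last, 44.9 kb away on a wild-type peak of fold 8.29, was called in neither KQ library. BNIP3L thus had a peak in both KQ libraries without having a reproducible one.

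NBR1, which binds ubiquitin and LC3 as p62 does, was the only member with a reproducible peak at its own start. The summit was 0.035 kb after the RefSeq start, with fold 5.92 and with 17 and 12 tags in wild-type libraries 1 and 2. A stronger NBR1 site, of fold 9.83, was 44.8 kb upstream, inside BRCA1, and overlaps promoter windows of BRCA1 and NBR2. The peak at the NBR1 start also overlaps promoter windows of BRCA1 and LOC101929767. CALCOCO2, also called NDP52, had sites of fold 9.03, 2.0 kb upstream, and 10.1, 26.3 kb downstream. Neither NBR1 nor CALCOCO2 had a peak in a KQ list. OPTN, optineurin, had a peak in wild-type library 2 only and none in the pooled list.

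Of the lysosome genes, TFEB had wild-type sites of fold 8.60 inside the gene and 10.7 at 30.2 kb upstream, near FRS3. The inner site had 17 and 12 tags, and KQ had no peak at either. LAMP1, a lysosomal membrane glycoprotein gene, had 2 pooled wild-type peaks, neither reproducible, among them the one on the promoter printed above.

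The 14 members with reproducible wild-type peaks that are not among the 8 highest by fold had a highest fold between 4.59 and 12.1. Of the 14 members with no reproducible wild-type peak, 7 had a pooled one (ATG13, ATG101, ATG2B, ATG3, ATG10, GABARAPL2 and LAMP1). The other 7 (RB1CC1, WIPI2, ATG4C, ATG12, ATG16L1, MAP1LC3A and OPTN) had none, and of these RB1CC1, WIPI2 and ATG16L1 were without a peak in all 6 lists. With KQ the members' reproducible peaks were those near GABARAP and in SQSTM1.

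A wider set of 87 autophagy and lysosome genes, in 5 lists, was counted in the same way. A reproducible wild-type peak was near 38 of the 87 (43.7%) and a reproducible KQ peak near 5 (5.75%), against 37.7% and 2.68% of all genes. Wild-type counts were 9 of 15 for lysosomal membrane and acidification genes, 6 of 12 for further cargo receptors, 9 of 20 for nutrient and transcription control, 8 of 20 for further autophagy machinery and 6 of 20 for lysosomal hydrolases. The 5 genes with KQ peaks were VMP1, an endoplasmic reticulum protein of early autophagosomes (KQ fold 6.84), CD63, a lysosomal tetraspanin (4.21), ATP6V1B2, a subunit of the proton pump (5.51), LIPA, the lysosomal acid lipase (6.64), and RHEB, which activates mTORC1 (8.06). The highest wild-type folds were 21.2 at PRKAA1, a catalytic subunit of AMPK, 41.9 kb outside the gene, 18.7 inside LIPA, and 13.5 near ATP6V1A.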

How the data were processed

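ChIP-seq peak lists from human MCF10A-NeuT cells were used: 1 list for each of 4 libraries and 1 for the pooled libraries of each of 2 groups, 6 lists in all. The submitters' processing notes name Bowtie2 (version 2), MACS2 and hg38. Neither the caller's settings nor its control is given in sources used here. The deposited lists give, per peak, a fold enrichment (a ratio made by the authors), −log10 of p and q, also the authors', and the authors' summit position. Folds describe peaks within their own list.

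Peaks on chromosomes 1 to 22 and X were kept. Reproducible means an overlap of at least 1 bp with a peak of both libraries. Tags n and background b were solved from fold = (n + 1)/(b + 1) and the Poisson p, with whole n within a relative tolerance of 1e-04. Gene spans and starts came from RefSeq tables of GRCh38.p14, the assembly of hg38. No genome sequence was used, so the planned motif search around summits was run on promoters. Shares carry exact binomial 95% intervals, which cover counting error only. Library counts were compared by an exact permutation test, two-sided. Where 2 and 2 libraries do not overlap, the p-value of this test is 0.333 whatever the spread between libraries. That spread may be technical. Functions were tested on simulated data. Python 3.11.15, numpy 2.4.6, pandas 2.3.3 and scipy 1.17.1 were used.

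All members are accounted for. Described in full are those with a reproducible KQ peak or among the 8 highest by reproducible wild-type fold. Of the wider set, those with a reproducible KQ peak and the 3 highest wild-type folds are named. PIK3R4, MAP1LC3B2 and MAP1LC3C are named beside related members. Members and lists were chosen with earlier results of these data known.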

Additional observations from a re-analysis of the deposited data

How the results depend on the processing

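The count of 22 members with a reproducible wild-type peak fell to 10 in a 5 kb window (17.5% of all genes), to 7 with summits inside the gene (13.7%), to 12 with only the nearest gene of each summit (23.4%), and to 3 with the 354 reproducible peaks of best q alone (3.25%). The nearest-gene setting keeps the same peaks and has no distance limit. It assigns each peak to all genes that hold its summit, or else to the closest gene. The 12 thus need not all be among the 22. The other settings that lowered the count use narrower windows or fewer peaks. It was 25 with a 100 kb window (52.4% of all genes), 29 with all pooled peaks (67.1%), 21 with an overlap of at least 50% of the peak (35.4%) and 22 with −log10 q of at least 5 (37.6%). It was 26 without replicate 1 (48.6%) and 26 without replicate 2 (54.8%), so the share over all genes moved as well. The KQ count of 2 became 1 in the 5 kb window (1.09% of all genes) and inside the gene (0.826%), 11 with all pooled peaks (16.4%), and 5 to 6 when one replicate was left out, since 1 library then decides: 6 without KQ library 1 (5.79%) and 5 without library 2 (7.01%). The share of wild-type sites under KQ peaks was 11.6% over all pooled wild-type peaks in the members' windows (9.10% genome-wide) and 5.41% with reproducible KQ peaks alone (3.91% genome-wide). The excess of wild type over KQ per library stayed between 13.5 and 24.5 genes and between 23 and 64 peaks in all settings. With the replicate number as a block the differences were 23 genes and 62.5 peaks (exact sign-flip permutation p = 0.5 for both, the lowest that 2 pairs allow). The labels do not say what the number marks. Peaks that were not called have no tag count, so absence of a peak sets no upper limit.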
